A study of Mus musculus with 34 samples.

Results

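Genes of 6 secreted proteins, Crispld2, Svep1, Htra1, Htra3, Mgp and Abi3bp, were followed through mouse livers with a Pdgf-c transgene. These 6 genes were chosen by their measured response to the transgene or to the retinoid peretinoin, so their levels in those contrasts are given as a description with no test. They are 6 of the 18193 genes that the array's probe table names by exactly 1 symbol, and all 6 passed the filter on low signals, as did 13099 genes in all. For each gene the probe set of highest mean signal stood for the gene. The name "most raised by the transgene" held for 5 of them, whose log2 changes at week 20 lay among the 20 highest of 13099 genes. Their order is not read further, since Crispld2 and Svep1 were at or near the floor of the array in wild-type liver. With an offset of 64 in place of 16 Svep1 ranked 21 and Htra3 36, and with averaged probe sets Htra3 ranked 267. Abi3bp ranked 584 at week 20 and 3654 at week 48, and it stood out by its level under peretinoin at week 48, where its change was the 6th lowest (rank 6) of all genes.

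The arrays covered 7 groups. Wild-type mice (strain C57/B6 in the labels) on the basal diet gave 5 livers at week 20 and 4 at week 48. Mice labelled Pdgf-c Tg on the basal diet gave 5 livers at week 20, 5 at week 48 and 5 hepatic tumours at week 48. Pdgf-c Tg mice on a diet with 0.06% peretinoin from weaning at week 4 gave 5 livers at each age. The sources used here do not give the promoter or cell type that drives the transgene, the number of founder lines, or whether any tumour shared its mouse with a sampled liver. They also do not say that the samples of a group came from separate animals, so p-values measure the spread between these samples, which may be technical.

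Each value is a MAS5 signal, an intensity on a linear scale that is set to a common trimmed mean on every array, and array medians ranged from 71.5 to 95.7. Signals of different probe sets are not comparable as levels. Log2 changes are on the log2(signal + 16) scale, which understates changes of dim genes, and their errors are moderated standard errors from limma. The hepatocyte markers fitted the labelled tissue: their 9 measured members summed to signals of 195962 to 321900 in every group, tumours included. The signal of Pdgfc itself at week 20 was 258.9 to 411.7 without the transgene, 210.0 to 386.3 with it and 346.7 to 744.2 with transgene and peretinoin. At week 48 these ranges were 458.2 to 518.9, 517.2 to 1218.8 and 506.4 to 646.5, and tumours had 613.2 to 1015.1. The files do not say whether its probe set covers the transgene, so it does not check the labels. In all, 6 arrays carried transcripts of skeletal muscle or exocrine pancreas at 3 or more log2 units above the median array: wild-type week 48 replicate 4, transgenic week 20 replicate 5, transgenic week 48 replicate 4, peretinoin week 20 replicates 3 and 5, and peretinoin week 48 replicate 1. The ratio of 3' to 5' signal of Actb, a measure of RNA integrity, moved with genotype and age. At week 20 it was 1.81 to 2.16 without the transgene and 1.62 to 1.74 with it, and at week 48 it was 1.39 to 1.71 and 1.30 to 1.57, so neither genotype overlapped between the ages. With peretinoin it was 1.70 to 3.31 at week 20 and 1.42 to 1.94 at week 48, and in tumours 1.25 to 1.47. Its part in the differences of genotype, age and diet was not tested.

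PDGF-C is a growth factor that activates PDGF receptors on mesenchymal cells, and in the liver these include hepatic stellate cells and portal fibroblasts, which lay down matrix in fibrosis. The proteins of the 6 genes act outside the cell. Crispld2 is a secreted protein with CAP and LCCL domains. Htra1 and Htra3 are secreted serine proteases of the HtrA family, which cleave matrix proteins and restrain TGF-beta family signalling. Mgp (matrix Gla protein) is a vitamin K-dependent inhibitor of calcification that binds BMPs. Svep1 is a large matrix protein of mesenchymal cells that binds integrin alpha9 beta1, and Abi3bp is a matrix protein that binds the SH3 domain of Abi3.

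The bases upstream of the annotated starts are shown for the 4 genes that the RefSeq promoter table (GRCm38.p6) holds, since their levels were higher together in transgenic liver. Mgp and Abi3bp were not among the entries. Windows run 5′ to 3′ on the gene's strand and cover the 250 bases before the start, or for Htra3 the 217 of those that lie outside the gene's annotated span. Capitals mark matches to the motifs searched.
Crispld2, chr8:119992188-119992437, plus strand: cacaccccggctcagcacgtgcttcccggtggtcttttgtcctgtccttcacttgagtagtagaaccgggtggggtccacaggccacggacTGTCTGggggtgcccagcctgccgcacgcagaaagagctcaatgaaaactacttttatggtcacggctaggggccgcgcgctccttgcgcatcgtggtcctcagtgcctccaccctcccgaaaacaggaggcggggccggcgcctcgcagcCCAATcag
Svep1, chr4:58206597-58206846, minus strand: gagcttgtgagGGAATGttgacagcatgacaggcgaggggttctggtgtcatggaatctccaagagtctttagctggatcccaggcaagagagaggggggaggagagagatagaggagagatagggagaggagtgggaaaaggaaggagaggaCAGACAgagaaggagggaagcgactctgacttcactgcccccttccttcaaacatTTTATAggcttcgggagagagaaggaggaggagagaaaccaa
Htra1, chr7:130935953-130936202, plus strand: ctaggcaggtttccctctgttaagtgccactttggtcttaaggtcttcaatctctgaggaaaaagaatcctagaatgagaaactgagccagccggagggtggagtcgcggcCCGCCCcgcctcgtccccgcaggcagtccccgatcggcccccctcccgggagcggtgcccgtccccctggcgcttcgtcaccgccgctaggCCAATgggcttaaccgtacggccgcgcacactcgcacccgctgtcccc
Htra3, chr5:35679814-35680030, minus strand: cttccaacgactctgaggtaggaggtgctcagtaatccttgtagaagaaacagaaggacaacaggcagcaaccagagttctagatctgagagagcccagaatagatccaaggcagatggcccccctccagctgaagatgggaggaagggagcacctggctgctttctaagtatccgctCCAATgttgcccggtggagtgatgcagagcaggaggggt
Crispld2 and Htra1 had GC-rich windows, 63.2% and 64.8% GC with 18 and 22 CpG dinucleotides, while the median of 32851 promoter windows of 250 bases was 52.4% and 6. Svep1 (52.4% GC, 3 CpG) and Htra3 (53.9% GC, 3 CpG over 217 bases) were near or under those medians. Both strands were searched for 9 motifs: the TATA box TATAAA, the GC box (letters GGGCGG), the AP-1 site (letters TGANTCA), the TEAD site (letters GGAATG), the palindromic SMAD element (letters GTCTAGAC), the shorter SMAD element (letters CAGACA), a retinoid receptor repeat unit (letters AGGTCA), the CCAAT box and the CArG box. No letters of one motif lie within another. With positions counted back from the start, Crispld2 held the shorter SMAD element, read on the other strand (-159 to -154), and CCAAT (-8 to -4). Svep1 held the TEAD site (-239 to -234), the shorter SMAD element (-97 to -92) and, read on the other strand, the TATA box (-42 to -37). Htra1 held the GC box, read on the other strand (-139 to -134), and CCAAT (-48 to -44), and Htra3 held CCAAT (-72 to -68). No motif occurred in all 4 windows. Among all windows, the TATA box occurred in 12.4%, the GC box in 32.7%, the AP-1 site in 6.75%, the TEAD site in 12.6%, the palindromic SMAD element in 0.167%, the shorter one in 17.1%, the retinoid receptor unit in 14%, CCAAT in 33.8% and the CArG box in 1.47%, so the motifs matched in these windows are each found in 12.4% to 33.8% of all windows. A match is a description of these letters and not a site of binding.

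Crispld2 was near the floor of the array in wild-type liver and bright in every transgenic one. Its signals in wild-type liver were 17.7, 13.4, 12.1, 10.9 and 13.4 at week 20, and 11.9, 25.1, 18.9 and 111.2 at week 48. In transgenic liver they were 2726.1, 1407.1, 1779.2, 2335.6 and 1642.7 at week 20, and 795.5, 501.6, 586.1, 945.3 and 423.1 at week 48. No array of one genotype reached the range of the other at either age. At week 20 the mean signal was 13.5 ± 2.57 (SD, n = 5) without the transgene and 1978 ± 540 (n = 5) with it, a log2 difference of 6.04 ± 0.30. At week 48 the log2 difference was 3.75 ± 0.32, which is -2.29 ± 0.44 from the earlier age. In bulk RNA, more cells that express a gene and more RNA per cell cannot be told apart. With peretinoin the signals were 932.8, 729.9, 1060.2, 532.6 and 929.5 at week 20, all under the basal-diet range, and 777.6, 273.9, 281.8, 480.0 and 341.2 at week 48, which overlapped it. Tumours gave 335.8, 233.8, 342.3, 461.0 and 301.0.

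The size of the Crispld2 difference depended on the probe set. The brightest one may also bind related transcripts, as its _x_at suffix marks. The other probe sets of the gene ran in the same direction with smaller changes, 3.34 (65.5 to 88.4 without and 677.8 to 1081.2 with the transgene at week 20) and 3.06 (19.0 to 44.3 and 228.1 to 501.2). The mean over its kept probe sets put the week 20 log2 difference at 4.14. With an offset of 1 or 64 in place of 16 it was 7.07 or 4.68. The loss of transgene difference between the ages was likewise -0.74 and -0.83 on the other probe sets. The mean over all kept probe sets of Crispld2, the brightest included, gave -1.29, beside -1.20 for both Htra1 and Htra3 and -1.13 for Mgp.

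On its brightest probe set, Htra1 was present at low signal in wild-type liver and varied widely there. Its wild-type signals were 194.3, 166.9, 46.7, 17.3 and 164.6 at week 20 and 219.2, 64.1, 91.9 and 286.5 at week 48. Transgenic livers gave 2146.4, 1998.1, 2226.7, 1886.0 and 1832.5 at week 20, and 912.5, 1212.1, 1254.3, 1381.1 and 1748.3 at week 48. The spread was narrow at week 20, with a mean of 2018 ± 168 (SD, n = 5), and all transgenic values stood above all wild-type ones. The log2 difference was 4.24 ± 0.42 at week 20 and 3.03 ± 0.44 at week 48. Tumours, at 1701.6, 1166.9, 1571.4, 1830.4 and 1521.2, were the second brightest group after transgenic liver at week 20. Peretinoin livers gave 766.3, 875.8, 1117.6, 1611.4 and 1187.3 at week 20 and 238.2, 433.2, 1140.9, 1299.4 and 923.3 at week 48. The week 48 peretinoin livers reached down to the wild-type range through replicate 1 and wild-type replicate 4, both arrays with muscle transcripts. A second probe set of Htra1 gave a week 20 log2 difference of 4.58, and it was near the floor in wild-type liver at that age (9.7 to 24.5).

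Htra3, the second protease, rested on 1 of its 3 probe sets. Wild-type signals were 39.1, 22.2, 10.8, 42.5 and 81.2 at week 20 and 54.0, 17.5, 16.2 and 89.9 at week 48. In transgenic liver they were 679.2, 655.8, 591.9, 485.1 and 394.6 at week 20 and 401.0, 282.2, 231.9, 295.6 and 110.8 at week 48. The groups did not overlap at either age, with log2 differences of 3.49 ± 0.42 and 2.30 ± 0.45. Peretinoin livers gave 184.6, 108.8, 234.2, 111.1 and 301.0 at week 20 and 109.2, 7.5, 132.6, 142.5 and 38.9 at week 48. The week 20 values lay wholly under the basal diet, and those at week 48 overlapped both the basal-diet and the wild-type range. Tumours (61.8, 77.3, 77.2, 132.2 and 101.8) also overlapped the wild-type livers of week 48. That overlap came only from wild-type replicate 4 (89.9), an array with muscle transcripts, and the next highest was 54.0. The other Htra3 probe sets did not follow. One read 145.6 to 229.7 without and 123.5 to 194.9 with the transgene at week 20 (log2 difference -0.29), and the other from 4.7 to 66.2 and from 31.2 to 114.0 (1.02). Averaging the kept probe sets lowered the week 20 difference to 1.60.

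Mgp was clearly above the floor in wild-type liver and higher in every transgenic one. Wild-type livers gave 210.6, 261.6, 93.1, 185.6 and 121.8 at week 20 and 133.9, 59.2, 112.7 and 301.7 at week 48. Transgenic livers gave 4407.7, 3407.0, 2747.2, 3167.2 and 3083.0 at week 20, and 906.9, 1203.0, 1402.9, 1455.3 and 1231.8 at week 48. Neither age had an overlap, and the log2 difference went from 4.21 ± 0.35 at week 20 to 3.08 ± 0.37 at week 48. With peretinoin, Mgp was lower than on the basal diet without overlap at both ages: 915.9, 1150.0, 1521.3, 745.2 and 1969.4 at week 20 (log2 difference -1.47 ± 0.35) and 732.0, 167.2, 494.4, 350.0 and 238.9 at week 48 (-1.76 ± 0.35). Tumours gave 368.5, 214.1, 624.6, 611.3 and 319.0, which overlapped peretinoin and wild-type livers of that age. The overlap with wild type came only from replicate 4 (301.7), an array with muscle transcripts, and the next highest was 133.9.

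Svep1 went from the floor of the array to a steady signal. Its wild-type values were 12.5, 8.5, 16.4, 6.3 and 7.6 at week 20 and 15.4, 12.4, 10.1 and 15.7 at week 48. Transgenic livers gave 533.7, 448.9, 477.5, 533.3 and 571.8 at week 20, and 301.6, 392.8, 320.0, 364.5 and 394.3 at week 48. Both transgenic groups were tight, at 513 ± 49.2 and 355 ± 42.2 (SD, n = 5 each), and the log2 differences from wild type were 4.34 ± 0.34 and 3.65 ± 0.36. With an offset of 64 the week 20 difference was 2.96, and with an offset of 1 it was 5.58. With peretinoin the values were 63.9, 185.2, 173.2, 401.4 and 335.3 at week 20 and 167.2, 40.6, 277.6, 332.5 and 266.6 at week 48. Every week 20 value lay under the basal-diet livers, while the SD on the log2 scale was 0.94 and 1.06 with peretinoin against 0.14 and 0.17 on the basal diet. The wider spread leaned on single arrays, and it was 0.57 without peretinoin week 20 replicate 1 and 0.39 without week 48 replicate 2. The difference in spread was not tested. Tumours, at 398.3, 269.0, 391.7, 414.8 and 342.7, covered the transgenic livers of the same age.

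Abi3bp was expressed without the transgene and ended below that level under peretinoin and in tumours. Wild-type livers gave 234.7, 292.3, 155.3, 254.9 and 263.7 at week 20 and 206.0, 245.1, 200.7 and 279.1 at week 48. Transgenic livers gave 648.1, 586.1, 533.0, 730.6 and 416.5 at week 20, all above wild type, and 395.6, 377.4, 254.5, 287.2 and 171.8 at week 48, which overlapped it. The log2 difference was 1.23 ± 0.25 at week 20 and 0.29 ± 0.27 at week 48. Peretinoin livers gave 458.7, 459.4, 447.5, 395.9 and 629.2 at week 20, overlapping the basal diet, but 114.2, 38.6, 46.0, 122.7 and 36.1 at week 48. Those 5 values were all under every basal-diet and every wild-type liver, with log2 differences of -1.92 ± 0.25 and -1.63 ± 0.27. Tumours (129.9, 65.9, 127.6, 145.8 and 79.1) were likewise under every wild-type liver of week 48, by a log2 difference of -1.02 ± 0.27. The second Abi3bp probe set gave -2.09 for peretinoin and -1.67 for tumours against transgenic liver at week 48.

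**Figure D1:**
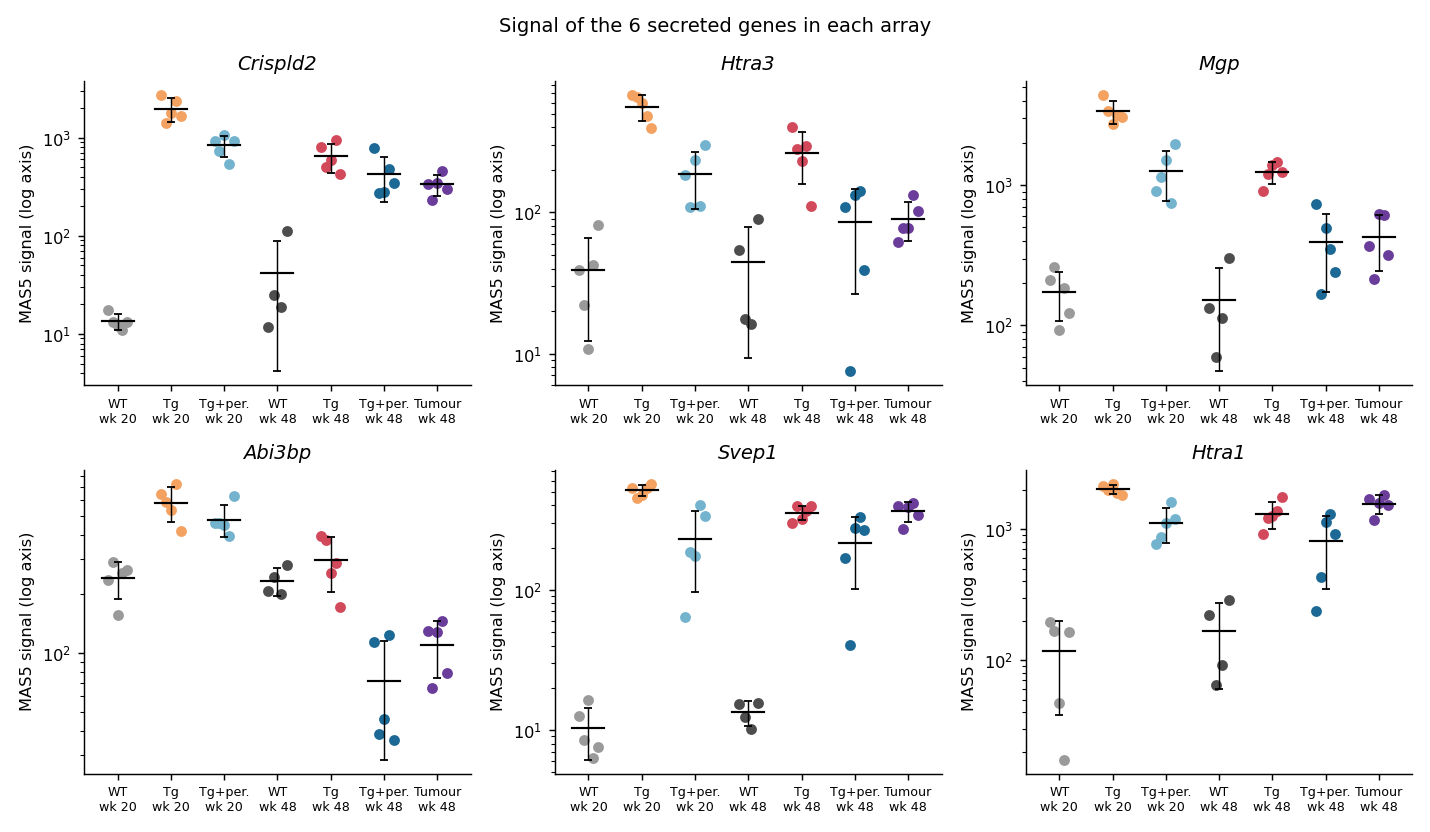
MAS5 signal (log axis) of each of the 6 genes in each of the 34 arrays, by group (WT wild type, Tg transgenic, per. peretinoin diet, wk week). Points are arrays, horizontal bars are group means and whiskers are SD, with the lower one stopped above 0 where the SD passes the mean. Abi3bp alone has tumours and week 48 peretinoin livers below all wild-type livers, and the tumours of Svep1 and Htra1 stay at the level of transgenic liver.

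By order of group means, transgenic liver of week 20 came first for all 6 genes, and the rest of the order differed. For Svep1 and Htra1 tumours followed, then transgenic liver of week 48 and both peretinoin groups, and each of these neighbours overlapped the next. Crispld2 ran from peretinoin liver of week 20 through transgenic and peretinoin liver of week 48 to tumours, again with each overlapping the next, and a gap of 2.85 log2 units lay between tumours and wild type. Htra3 and Mgp had transgenic liver of week 48 and peretinoin liver of week 20 next, then tumours and peretinoin liver of week 48 ahead of wild type. Between peretinoin liver of week 20 and tumours Mgp had a gap of 1.55 without overlap, and Htra3 one of 0.88 with overlap. Abi3bp alone had both wild-type groups ahead of tumours and of peretinoin liver of week 48.

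Read over the 6 genes, the transgene contrast had a median log2 difference of 4.22 at week 20 and 3.06 at week 48, where the median of all genes was 0.06 and 0.04. The groups did not overlap, with transgenic liver higher, for 6 of 6 genes at week 20 and 5 of 6 at week 48. Of all genes, 11.5% and 13.9% did so. Since this contrast chose the genes, nothing is read from these counts. Without the 6 arrays that carried muscle or pancreas transcripts, no week 20 or week 48 transgene difference of the 6 genes changed sign.

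The peretinoin contrast, which also chose the genes, had a median log2 difference of -1.26 at week 20 and -1.28 at week 48 over the 6 genes. Peretinoin livers were lower without overlap for 5 of 6 genes at week 20, all but Abi3bp, against 2.96% of all genes. At week 48 this held for 2 of 6, Mgp and Abi3bp, against 1.84% of all genes. Abi3bp went from -0.27 ± 0.25 at week 20 to -1.92 ± 0.25 at week 48. Crispld2 had -1.22 ± 0.30 and -0.63 ± 0.30, but its other probe sets did not share that order, with -0.94 and -0.97 on one and -0.54 and -0.67 on the other. For Htra1 the values were -0.89 ± 0.42 at both ages, with -0.55 and -0.49 on its second probe set. For Htra3 they were -1.57 ± 0.42 and -1.66 ± 0.42. The other Htra3 probe sets had -0.16 and -0.04, and 0.04 and 0.05, and averaging the kept ones gave -0.76 and -0.81. Peretinoin livers still stood above wild type without overlap for all 6 genes at week 20, with log2 differences of 0.96 (Abi3bp) to 4.82 (Crispld2). At week 48 only Crispld2 (3.12 ± 0.32) and Svep1 (2.75 ± 0.36) did so, and Htra1, Htra3 and Mgp overlapped wild type. For Htra1 and Mgp the overlap came only from wild-type replicate 4, an array with muscle transcripts. The second Htra1 probe set did not overlap there (161.2 to 866.6 against 17.4 to 84.4, log2 difference 3.10). The comparison with wild type shares arrays with those that chose the genes. No share of all genes is given for it, so nothing is read from its counts.

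**Figure D2:**
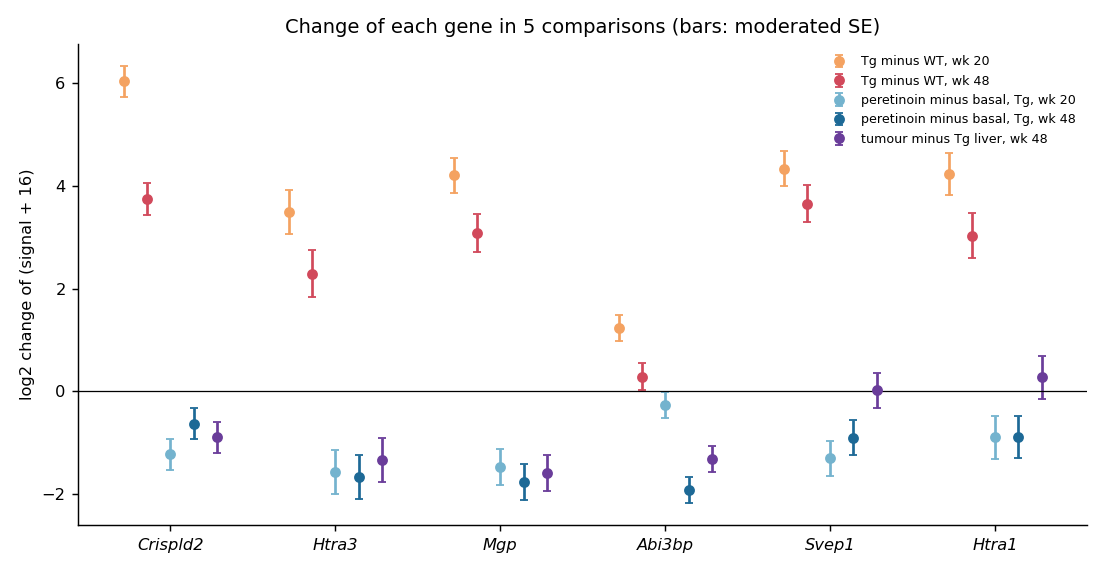
Log2 change of each gene (vertical axis, log2 of signal + 16) in 5 comparisons, with bars for the moderated standard error. Crispld2 has the highest point at 6.04 for the transgene at week 20, and the tumour points of Svep1 (0.03) and Htra1 (0.27) lie by the zero line while those of the other 4 genes lie between -1.59 and -0.90.

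Another 4 comparisons had no part in choosing the genes and were tested over all 13099 genes: week 48 against week 20 within wild-type, transgenic and peretinoin-fed mice, and tumour against transgenic liver. They share arrays with the contrasts that chose the genes. A choice for high transgenic levels can by itself lean a comparison that starts from those arrays toward lower values. A choice for low levels with peretinoin can likewise lean a comparison that ends in those arrays. This applies to Abi3bp, Mgp and Htra3, whose peretinoin changes at week 48 ranked 6, 12 and 18 from the lowest of 13099 genes.

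With age, 3 of the 6 genes fell in transgenic liver on the basal diet. Crispld2 fell by 1.60 ± 0.30 on the log2 scale (adjusted p = 0.000657), Mgp by 1.43 ± 0.35 (adjusted p = 0.00512) and Abi3bp by 0.97 ± 0.25 (adjusted p = 0.00857), and in each case all 5 arrays of week 48 were below all 5 of week 20. Of all genes, 9.76% were called lower in this comparison. No share of all genes without overlap is given for the comparisons between ages, so the overlaps are not read further. Svep1 (-0.52 ± 0.34, adjusted p = 0.324) and Htra1 (-0.65 ± 0.42, adjusted p = 0.305) also lay below week 20 in every array but did not pass. Htra3 had -1.12 ± 0.42 with overlap (adjusted p = 0.0686), and it passed without peretinoin week 48 replicate 2 (adjusted p = 0.0333) or with an offset of 64 (adjusted p = 0.0127). When the 10 arrays were fitted alone, with no spread shared with the other groups, all 6 genes passed. That fit also called more of all genes, 1612 lower and 944 higher, against 1278 and 785 with all groups fitted together. The median over the 6 was -1.04 against -0.04 over all genes.

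In peretinoin-fed transgenic mice 3 of 6 fell with age, against 8.57% of all genes. Abi3bp fell by 2.62 ± 0.25 (adjusted p = 6.27e-08), from a mean signal of 478 ± 88.4 to 71.5 ± 43.1 (SD, n = 5 each) with no overlap. The same week 48 arrays gave the low peretinoin level by which Abi3bp stood out, so its p is not independent of the choice. Mgp fell by 1.72 ± 0.35 (adjusted p = 0.00156), also with no overlap. The p-values of Mgp and, below, of Htra3 carry the same limit. Crispld2 fell by 1.005 ± 0.30 (adjusted p = 0.0243), a call that was lost without peretinoin week 20 replicate 1 or 3 or week 48 replicate 2, 3 or 5 (adjusted p from 0.0554 to 0.0669) and with an offset of 1 (adjusted p = 0.0531), median centring (0.0549) or the compared arrays alone (0.0597). Htra3, at -1.21 ± 0.42 (adjusted p = 0.0531), lay on the other side of the same threshold and passed in 9 of the 34 fits that left out 1 array (adjusted p from 0.0298 to 0.0491). It also passed with the replicate block (adjusted p = 0.0448), an offset of 64 (0.0464), the upper 40% of probe sets (0.0498) and averaged probe sets (-0.75, adjusted p = 0.0434). Svep1 (-0.11 ± 0.34, adjusted p = 0.863) and Htra1 (-0.65 ± 0.42, adjusted p = 0.320) did not pass.

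In wild-type livers none of the 6 genes passed between week 20 and week 48 (limma, 4 and 5 arrays), while 6.88% of all genes did. Crispld2 and Svep1 were at or near the floor in both wild-type groups and were kept for the fit through the transgenic arrays, so the count is not read against that share. Htra3 was also dim there, with mean signals of 39.2 at week 20 and 44.4 at week 48. At an unadjusted p under 0.05 the count was 1 of 6, Crispld2, with 0.69 ± 0.32 (adjusted p = 0.206). That value leaned on replicate 4 of week 48, an array with muscle transcripts, and was 0.22 without it. The other log2 changes ranged from -0.30 ± 0.37 (Mgp) to 0.55 ± 0.44 (Htra1).

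The 6 genes differed in their tumour levels by value, a difference between genes that was not tested. Svep1 and Htra1 had tumour signals at the level of transgenic liver, with log2 changes of 0.03 ± 0.34 (adjusted p = 0.998) and 0.27 ± 0.42 (adjusted p = 0.952). Mgp (-1.59 ± 0.35, adjusted p = 0.217), Htra3 (-1.34 ± 0.42, adjusted p = 0.327), Abi3bp (-1.31 ± 0.25, adjusted p = 0.147) and Crispld2 (-0.90 ± 0.30, adjusted p = 0.354) were lower in tumour by value, and none passed. In limma's test none of the 6 passed, and 0% of all genes did. At an unadjusted p under 0.05, 4 of the 6 genes were lower, against 3.98% of all genes lower and 1075 genes in either direction. Every tumour lay below every transgenic liver for 2 of 6 genes, Mgp and Abi3bp, which 0.970% of all genes showed. Abi3bp passed without transgenic week 48 replicate 5 (adjusted p = 0.0290), tumour replicate 4 (0.0285), peretinoin week 48 replicate 1 (0.0228) or peretinoin week 48 replicate 4 (0.0391). Against wild-type liver of the same age, tumours were higher without overlap for Svep1 (3.68 ± 0.36), Htra1 (3.31 ± 0.44) and Crispld2 (2.85 ± 0.32), and overlapped it for Mgp (1.49 ± 0.37) and Htra3 (0.96 ± 0.45). Both overlaps came only from wild-type week 48 replicate 4, an array with muscle transcripts. The genes were chosen by contrasts that used these wild-type arrays. No share of all genes is given for tumours against wild type, so these overlaps are a description.

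Summed signals of mesenchymal cell markers overlapped between tumours and transgenic liver, and their part in the tumour values was not tested. The 13 measured stellate cell markers summed to 22461.8 to 27326.1 in tumours and 20828.7 to 28129.6 in transgenic liver. The 7 portal fibroblast markers summed to 2202.7 to 4190.4 in tumours and 2500.5 to 4218.9 in transgenic liver. For the 8 myofibroblast markers the range was higher in tumours, at 8578.2 to 14048.2 against 6205.9 to 11780.7, with a median log2 change of 0.56, among them Col1a1 (0.94) and Postn (1.11). Mesothelial markers (8 measured) summed to 713.6 to 1176.6 in tumours and 665.4 to 1690.5 in liver. With 0% of all genes called in this comparison, the lack of a call in these lists carries no information.

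The deviations of arrays from their own group mean carry no contrast between groups, and had no part in the choice of the genes. Over the 25 arrays of transgenic mice, r was positive for all 6 pairs among Crispld2, Htra3, Mgp and Abi3bp, from 0.55 to 0.71, and for Svep1 with Htra1. In a permutation test within groups, adjusted over the 15 pairs, 2 pairs passed by r and 5 by rho. Crispld2 and Abi3bp had r = 0.71 (permutation p = 0.00084, adjusted p = 0.0126) and rho = 0.70 (permutation p = 0.001, adjusted p = 0.0075), and r was 0.70 without the 2 arrays farthest from the median of Crispld2. Crispld2 and Mgp had r = 0.60 (permutation p = 0.00557, adjusted p = 0.0418) and rho = 0.50 (permutation p = 0.0222, adjusted p = 0.0554), with r = 0.49 without 2 arrays. Without those of the 25 arrays that carried muscle or pancreas transcripts, which left 20, the Crispld2 and Mgp relation no longer passed (r = 0.38, adjusted p = 0.271). Leaving out any of 8 single arrays also ended the call (adjusted p from 0.0506 to 0.0861). These were transgenic week 20 replicate 1 and week 48 replicate 4, tumour replicates 2 and 4, peretinoin week 20 replicates 4 and 5, and peretinoin week 48 replicates 1 and 2. Without the arrays that carried muscle or pancreas transcripts Crispld2 and Abi3bp kept r = 0.71 (adjusted p = 0.00413). Over the 20 livers without tumours the r of that pair was 0.68 (adjusted p = 0.0662) and no pair passed by r. By rho 3 pairs passed there (adjusted p = 0.0443 each): Crispld2 with Abi3bp, Svep1 with Htra1, and Htra3 with Abi3bp.

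By rho the other pairs that passed were Htra3 with Abi3bp (rho = 0.62, permutation p = 0.00788, adjusted p = 0.0394), Htra3 with Mgp (rho = 0.56, permutation p = 0.0153, adjusted p = 0.0460), Crispld2 with Htra3 (rho = 0.56, permutation p = 0.0127, adjusted p = 0.0460) and Svep1 with Htra1. Their r was 0.64, 0.59, 0.56 and 0.65, with adjusted p from 0.0508 to 0.0589. When each of the 25 arrays was left out in turn, the pairs Crispld2 with Abi3bp and Svep1 with Htra1 passed by rho in 25 of 25 fits, Htra3 with Abi3bp in 16, Crispld2 with Htra3 in 11 and Htra3 with Mgp in 7. Without those of the 25 arrays that carried muscle or pancreas transcripts only the first 2 of these passed by rho (adjusted p = 0.0104 and 0.0027).

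Svep1 and Htra1 had r = 0.65 (permutation p = 0.0236, adjusted p = 0.0589) and rho = 0.76 (permutation p = 0.00053, adjusted p = 0.0075), and r = 0.67 without the 2 arrays farthest from the median of Svep1. Without the arrays that carried muscle or pancreas transcripts r was 0.89 (adjusted p = 0.0012). Without peretinoin week 48 replicate 1 alone, where Htra1 was at its lowest transgenic signal of 238.2, r was 0.86 (adjusted p = 0.0015), and without replicate 2 of that group it was 0.64 (adjusted p = 0.0015). Htra1 ranked 53 of 13098 genes by its r with Svep1, and Svep1 ranked 341 by its r with Htra1. Pairs between the 2 sets were weaker by value, with r from -0.33 (Crispld2 and Htra1) to 0.41 (Svep1 and Htra3), and none of these 8 pairs passed by r or rho. The 2 sets were drawn from these same correlations, so weaker pairs between them follow in part from that choice. The difference between the sets was not tested.

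**Figure D3:**
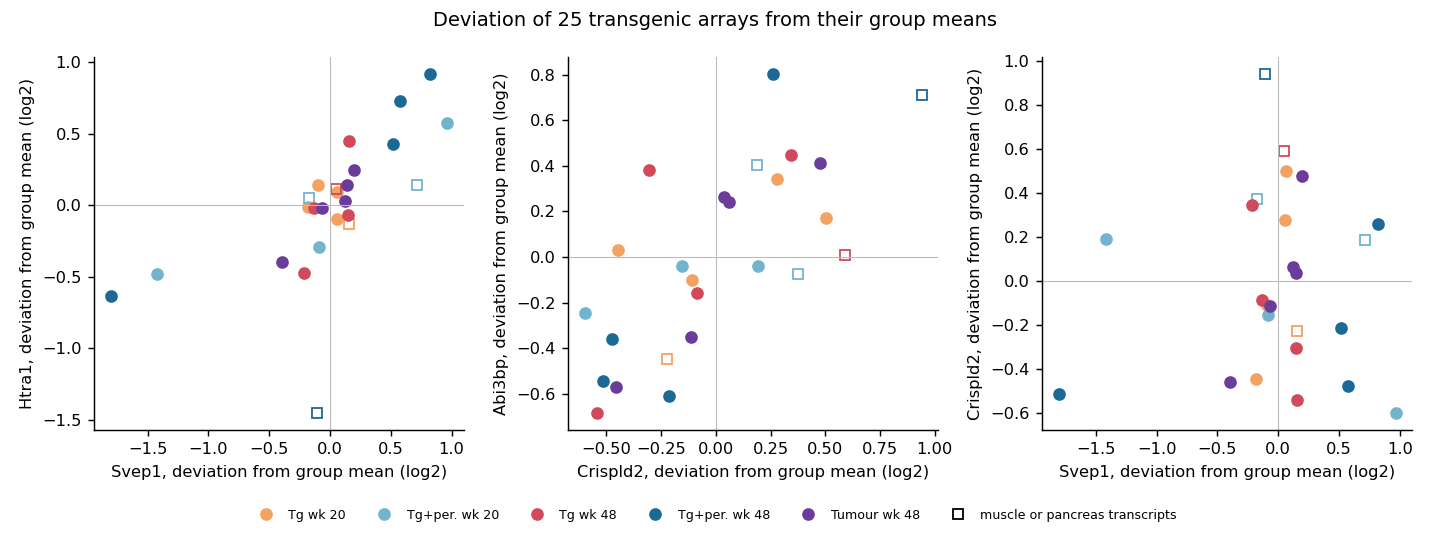
Deviation of each of the 25 transgenic arrays from its group mean (log2 of signal + 16) for 3 pairs of genes, with colours for groups and open squares for arrays with muscle or pancreas transcripts. Htra1 follows Svep1 (r = 0.65) but for 1 open square, Abi3bp follows Crispld2 (r = 0.71), and Crispld2 against Svep1 shows no such line (r = 0.02).

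For each gene the 3 genes of most similar profile were found by the root mean square difference of centred log2 signals over the 34 arrays, a description in which the arrays share group and probe brightness. For Htra1 these were Mmp2, a matrix metalloprotease (0.48), Itga8, an integrin subunit of mesenchymal cells (0.49), and Emp1, a membrane protein (0.54). Svep1 had Itga8 (0.52), Emp1 (0.52) and Adamts5, an aggrecanase (0.58). Mmp2 had a mean signal of 903 in tumours and 788 in transgenic liver at week 48, and Itga8 had 4338 and 4698. Crispld2 had no close match: its nearest were Emp1 (0.83), the PDGF receptor gene Pdgfra (0.87) and Itga8 (0.87).

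The other 3 genes had other neighbours. Htra3 lay nearest to Gsn (gelsolin, an actin-severing protein, 0.55), Ogn (osteoglycin, a small matrix proteoglycan, 0.59) and Cdh11 (a mesenchymal cadherin, 0.63). Mgp lay nearest to Gsn (0.60), Htra3 (0.66) and Cdh11 (0.66). Gsn had a mean signal of 5835 in transgenic liver at week 48, 2551 in tumours and 2156 with peretinoin. Abi3bp lay nearest to the receptor gene Epha3 (0.58), to 1110064A23Rik (0.65) and to Fbln1, the matrix protein fibulin-1 (0.66). Epha3 had means of 66.3 in wild-type, 112 in transgenic, 21.6 in peretinoin-fed liver and 62.6 in tumours at week 48, and Fbln1 had 130, 129, 66.6 and 79.3.

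**Figure D4:**
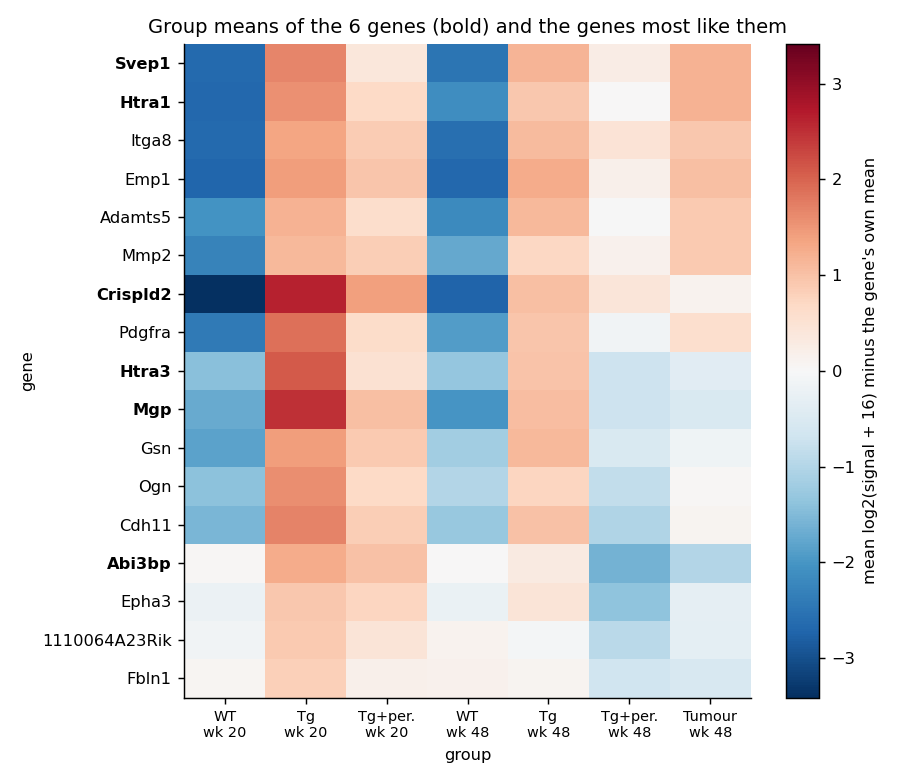
Group means of the 6 genes (bold) and their most similar genes, as mean log2(signal + 16) minus the gene's own mean over 34 arrays, red above and blue below. The rows from Svep1 to Pdgfra are red in tumours, with Crispld2 only slightly so (0.13). The rows from Abi3bp to Fbln1 are blue in tumours and in week 48 peretinoin livers, as are those of Htra3, Mgp and Gsn.

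Genes that work with the 6 were counted from fixed lists in the transgene contrast, where 15.8% of all genes rose and 7.87% fell at week 20, and 14.2% rose and 6.58% fell at week 48. Of the HtrA family and its matrix and growth factor substrates, 19 of 21 were measured, and 12 rose and 1 fell at week 20 (median log2 change 1.24). The small proteoglycans Bgn (3.04) and Lum (3.41), the elastic fibre protein Fbln5 (3.16) and Ltbp1 (1.61), which holds latent TGF-beta in the matrix, rose with the smallest p-values. Clu, a secreted chaperone, fell by 0.31, and with quantile normalization 0 genes of the list fell. At week 48, 11 rose and 1 fell. The lists were chosen with results of these data known, so their counts are not independent evidence.

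Around Mgp, 26 of 29 genes of vitamin K-dependent carboxylation and BMP signalling were measured, and 12 rose and 3 fell at week 20 (median 0.22). All that rose but Gas6 were of the BMP side, among them the ligand Bmp4 (1.28), the receptor Bmpr1a (0.63) and the co-receptor Eng (1.26), and Gas6, itself a vitamin K-dependent ligand, rose by 1.55. Ggcx, the carboxylase that activates Mgp, fell by 0.75, Vkorc1l1, which recycles vitamin K, by 0.49, and the ligand Bmp2 by 1.27. At week 48, 12 rose and Ggcx alone fell (-0.65).

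Around Svep1, 11 of 14 genes were measured and 3 rose at week 20: Vegfc, the lymphatic growth factor (1.06), and the integrin subunits Itga4 (0.71) and Itga9 (0.66). Itga9 had 0.31 at week 48 and did not pass there. With quantile normalization or median centring 1 gene of the list fell at week 20. Tie1 and Tek, receptors of the same pathway, did not pass at either age. Around Abi3bp, 9 of 11 genes of the Abi family and the WAVE complex, which drives actin branching, were measured. Abi2 (1.30), Wasf2 (0.70) and Nckap1l (0.54) rose at week 20, and Abi3, the partner for which Abi3bp is named, rose at week 48 (1.502) but had 0.69 at week 20. Of 13 CAP domain relatives of Crispld2 only Glipr1 (1.15) and Glipr2 (1.21) were measured, and both rose, or 1 with averaged probe sets.

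Markers of the cells that could hold these transcripts moved with the transgene. At week 20, 6 of 7 measured portal fibroblast markers rose, among them Cd34 (3.60), Fbln2 (1.39) and Dpt (2.23), and their summed signal was 961.7 to 1142.2 without the transgene and 3341.9 to 4678.0 with it. Of 13 stellate cell markers 5 rose, led by Pdgfrb (3.39), Cygb (2.61) and Hand2 (2.38). Of 8 myofibroblast markers 6 rose, with Col1a1 (4.11), Col3a1 (2.86) and Loxl1 (3.50), and Postn fell by 1.35. Mesothelial Wt1 rose by 2.17 among 2 of 8 in its list, and 2 of 6 smooth muscle markers rose. The part of these cells in the 6 genes' levels was not tested.

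The remaining marker lists covered the other cells of the liver and its surroundings. Of 9 hepatocyte markers 5 fell at week 20, by at most 0.38 (Apoa1), and of 10 macrophage markers 3 fell, Timd4 (-2.29), Clec4f (-3.16) and Cd5l (-1.91). None of 4 cholangiocyte markers passed, and of 10 endothelial markers Cd34 rose and Clec4g fell. Of 4 adipocyte markers 1 rose, Fabp4 (1.46). No skeletal muscle or pancreatic marker passed in the transgene contrast. With peretinoin at week 48 the portal fibroblast sum was 1498.3 to 2286.7, under the whole basal-diet range of 2500.5 to 4218.9, as Mgp and Abi3bp were, and 1 of its 7 genes, Dpt, fell by 2.61, where 0.573% of all genes fell. The mesothelial sum was 518.1 to 695.1 at that age against 665.4 to 1690.5 on the basal diet, with a slight overlap. At week 20 the myofibroblast sum was 8439.8 to 10611.1 with peretinoin, under the whole basal-diet range of 12028 to 14882.2, as 5 of the 6 genes were. At week 48 it overlapped the basal diet (4487.1 to 9586.5 against 6205.9 to 11780.7). The portal fibroblast sum overlapped it at week 20 (2454.8 to 3986.2 against 3341.9 to 4678.0). Stellate cell sums overlapped at both ages, so none of these lists was lower without overlap at both. The part of those cells in the values with peretinoin was not tested.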

How the data were processed

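The RNA of 34 mouse samples was hybridised to Affymetrix Mouse Genome 430 2.0 arrays, with 1 array for each. The authors deposited signal intensities on a linear scale, and the submitters' processing notes name MAS5 without a version. The 2% trimmed mean was 500.003 to 500.004 on every array. Of 45101 probe sets, 64 were controls, 34945 had 1 symbol in the platform's probe table, 932 several and 9160 none. Arrays have no read depth, and their number limits the precision.

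Signals were taken as log2(signal + 16). The brightest 60% of probe sets were kept and the brightest stood for its gene. Under R 4.3.3, limma 3.58.1 (lmFit, eBayes with trend) fitted 1 model with 7 groups, two-sided, with Benjamini-Hochberg adjustment over 13099 genes and a call at adjusted p under 0.05. The 6 genes and the lists were chosen with earlier results of these data known, so the transgene and peretinoin contrasts carry no p for the 6. Named list genes are those of smallest p at week 20, with others where a sentence needs them. Deviations from group means were correlated over 25 arrays with 100000 permutations within groups. Scripts were tested on simulated data.

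The highest correlation between 2 arrays was 0.977, with 0.293% identical signals, so no array was taken as a duplicate. Deviations of same-numbered samples correlated from -0.16 (peretinoin-fed and wild-type liver, week 20) to 0.43 (transgenic and wild-type liver, week 48). No samples of unlike number are given beside them, so a pairing is not settled, and the numbers were not taken as pairs. Alternatives were offsets of 1 and 64, quantile normalization, median centring, the upper 40% of probe sets, no filter, averaged probe sets, the compared arrays alone, a replicate block and leaving out each array.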

Additional observations from a re-analysis of the deposited data

Results flagged for a closer look

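In groups of 4 or 5 arrays, 2 of 42 combinations of gene and group held 1 array far from the rest, where chance gives about 1 in 20. Crispld2 in wild-type liver at week 48 had a signal of 111.2 in replicate 4, while the nearest array had 25.1 and the lowest 11.9. The gap was 0.867 of the range on the signal scale, over Dixon's critical value, and 0.745 on the log2 scale, under it. Abi3bp with peretinoin at week 20 had a signal of 629.2 in replicate 5, with the nearest array at 459.4. Its gap was 0.728 of the range on the signal scale, over the critical value, and 0.681 on the log2 scale, under it. Both arrays were among the 6 with muscle or pancreas transcripts, at 6.35 and 7.30 log2 units of muscle list above the median array, and the part of those transcripts was not tested.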

How the results depend on the processing

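Of 240 recomputed changes with a test, 223 kept their direction and side of the threshold, and of 540 without a test 499 kept their sign and moved by less than the spread between replicates. An offset of 64 moved the median log2 difference over the 6 genes to 3.30 for the transgene at week 20 and to 2.15 for peretinoin-fed against wild-type liver at week 20. The median difference between ages of the peretinoin effect (-0.04) turned to 0.108 with an offset of 64, 0.0116 with quantile normalization, 0.0407 with median centring and 0.40 without the arrays carrying muscle or pancreas transcripts (chosen after seeing the data), and ranged from -0.26 to 0.26 with single arrays left out. In the same quantity Htra1 turned to -0.00802 (offset of 1; -0.23 to 0.37 with arrays left out) and Htra3 to 0.18 (offset of 64), 0.00441 (quantile normalization) and 0.31 (without those arrays; -0.35 to 0.36 with arrays left out).

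Between ages in wild-type liver, Htra3 turned to -0.00481 with median centring, -0.00599 with averaged probe sets and -0.25 without those arrays (-0.25 to 0.32 with arrays left out), Abi3bp to 0.0815 with averaged probe sets (-0.165 to 0.0470), and Mgp ranged from -0.67 to 0.0213. With peretinoin, Svep1 turned to 0.0934 with median centring and 0.0927 without those arrays (-0.47 to 0.34 with arrays left out), and in tumours it ranged from -0.0283 to 0.125. Crispld2 lost its peretinoin age call with median centring (adjusted p = 0.0549) and with the compared arrays alone (adjusted p = 0.0597). The replicate block left the fall of Htra3 there at -1.21 with adjusted p = 0.0448 and changed no other call of the 6 genes. The deviations of same-numbered tumours and livers correlated at 0.08 to 0.29, all positive. Without samples of unlike number beside them this does not settle a pairing, and the numbers were not taken as pairs.

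Genes called: 6 of 6 with age in transgenic liver when fitted alone, and 0 to 1 in tumours with arrays left out. Among all genes the fit alone called 1612 lower and 944 higher with age in transgenic liver, against 1278 and 785 in the reported setting. Pairs called by r were 5 with an offset of 64, 7 over all 34 arrays, 0 over 20 livers and 1 to 5 with arrays left out. By rho, 5 in the reported setting, they were 6 with an offset of 1, 7 over all 34 arrays, 3 over 20 livers, 2 without the arrays carrying muscle or pancreas transcripts and 2 to 7 with arrays left out. At week 20 the HtrA list had 0 genes lower with quantile normalization, 2 with median centring and 2 with averaged probe sets (1 to 2 with arrays left out). The Svep1 list had 1 lower with quantile normalization and 1 with median centring. The list of CAP relatives had 1 higher in the upper 40% of probe sets and 1 with averaged probe sets. Under median centring the median change of all genes between ages with peretinoin was 0.16 in place of -0.05, and the split of calls from 640 higher and 1122 lower to 1890 and 352. In transgenic liver that split went from 785 and 1278 to 1195 and 548, and for the transgene at week 20 from 2071 and 1031 to 1417 and 1628 (1523 and 1262 with quantile normalization). At week 48 it went from 1858 and 862 to 2225 and 413, and in wild-type liver from 316 and 585 to 168 and 784. The causes of these moves were not tested.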
